A study of Mus musculus with 12 samples.

Results

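Skeletal muscle nuclei were a small share of the nuclei sequenced from the mouse depot labelled iBAT, a name commonly used for interscapular brown adipose tissue but not spelled out in the labels. They numbered 562 of 57684 iBAT nuclei and of 106898 nuclei in all 12 libraries that had no fewer than 300 genes and no more than 10% of mitochondrial UMIs (unique molecular identifiers, 1 per captured RNA molecule). The nuclei were chosen by measured values, their own counts of marker genes. A member had at least 5 UMIs in sum over Ttn, Neb, Myh4, Myh1, Ckm, Acta1 and Trdn, with at least 3 of these 7 genes seen. That sum also had to exceed the sum over Adipoq, Plin1, Plin4, Acsl1, Flt1, Lama2 and Mrc1, genes of adipocytes, endothelial cells, fibroblasts and macrophages. The levels of these 14 genes in the chosen nuclei are therefore descriptions.

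The 4 iBAT libraries came from male C57BL/6J mice on normal chow. The groups were 1 month, 2 months and 6 months of age at room temperature, 22 °C, and 6 months with 3 days at 4 °C. For the groups titled 6 months the labels also give an age of 16 weeks, and the titles' names are used here. The nuclei were stained with 7-AAD, sorted and run on the 10x 3′ chemistry. The number of animals behind a library is not given, and each group has 1 library. No test between ages or temperatures was possible, and the intervals below cover counting error only.

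A skeletal muscle fibre is a single long cell with many nuclei, so nuclei and not whole fibres enter a droplet. Fibres are typed by the myosin heavy chain they make. Myh7 marks slow fibres, Myh2 and Myh1 mark the intermediate fast fibres 2A and 2X, and Myh4 marks the fastest fibres, 2B. Myh3 and Myh8 are the embryonic and perinatal chains, which fibres make during development, after injury and in some states of lost nerve contact. The brown fat between the shoulder blades lies against the muscles of the neck and shoulder.

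Muscle nuclei were most frequent at 2 months. They were 45 of 11398 nuclei at 1 month, which is 0.395% (exact Clopper-Pearson 95% interval 0.288 to 0.528%). At 2 months they were 471 of 12497, or 3.77% (3.44 to 4.12%). At 6 months 36 of 21115 nuclei, 0.170% (0.119 to 0.236%), met the rule. After cold, 10 of 12674 did, 0.0789% (0.0378 to 0.145%). The 4 intervals do not overlap, except those of both 6-month libraries. How much muscle was taken with the fat of each library is not recorded, so a share reflects the dissection as well as the tissue and the 2 cannot be told apart.

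**Figure D1:**
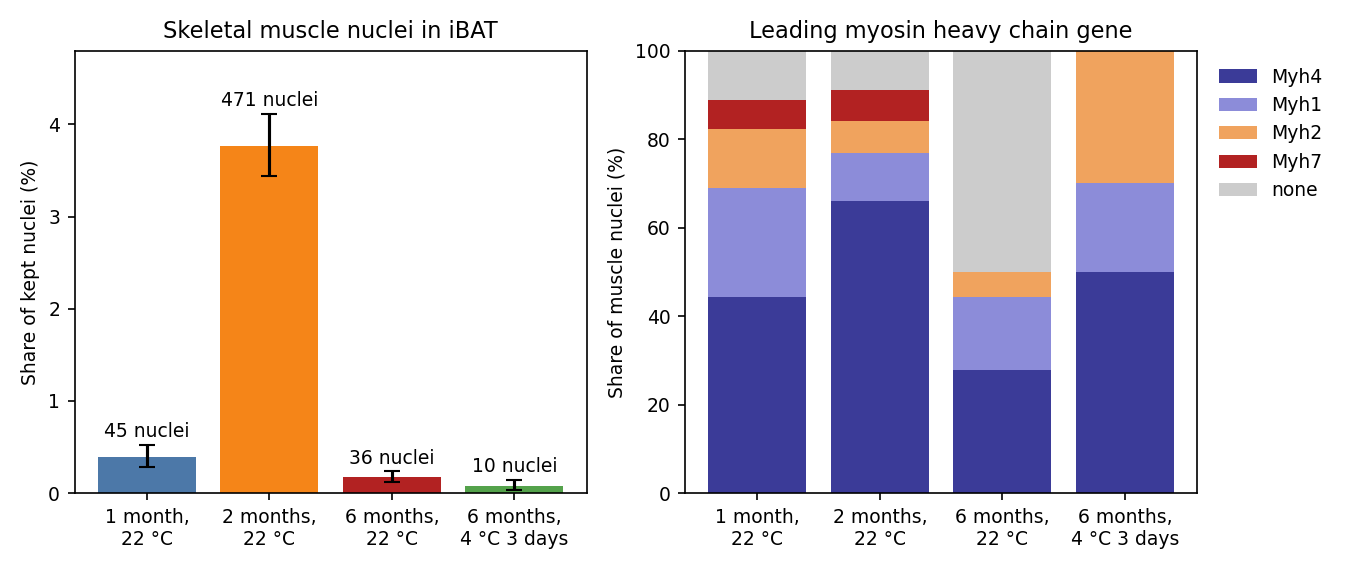
Left, muscle nuclei as a percent of the kept nuclei of each iBAT library, with the exact 95% binomial interval as the error bar; right, the percent of those muscle nuclei by leading myosin heavy chain gene. The 2-month library stands at 3.77%, and at 6 months at room temperature 50% of the muscle nuclei have no leading adult myosin.

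Total UMIs of the muscle nuclei were 156073 at 1 month, 1532082 at 2 months, 102558 at 6 months and 37304 after cold. A single UMI is thus worth 6.41, 0.653, 9.75 and 26.8 CPM (UMIs of a gene per 1000000 UMIs of the muscle nuclei), and the cold library can show only abundant genes. The median nucleus had 2513, 2325, 2552 and 4279 UMIs in these 4 libraries, against 1227, 1423, 2125 and 6302.5 in their other nuclei. The median sum over the 7 muscle genes was 211, 171, 72 and 150 UMIs, and the median sum over the 7 other genes was 2, 2, 3 and 2. Just inside the rule lay a 1-month nucleus with 6 muscle UMIs from 3 genes and 5 other UMIs. Just outside lay a 1-month nucleus with 30 muscle UMIs from 2 genes. No barcode was a muscle nucleus in more than 1 iBAT library, and each pair of these libraries shared at most 2 barcodes that were muscle in one and another kept nucleus in the other.

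The label holds against genes that the rule did not use. All 16 further muscle genes, among them Ryr1, Dmd, Mybpc1 and Tnnt3, were at least 2-fold higher in the muscle nuclei than in the other nuclei of the same library, in each of the 4 libraries. Their summed level was 36502 CPM at 1 month, 37584 at 2 months, 27750.2 at 6 months and 45545 after cold. Other nuclei held 217, 283, 219 and 120 CPM. Each muscle nucleus had at least 1 of the 16 genes, with medians of 11, 11, 9 and 13. Ryr1, the calcium release channel of the sarcoplasmic reticulum, stood at 2800, 2993, 1892 and 2707 CPM, against at most 9.08 in the other nuclei.

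**Figure D2:**
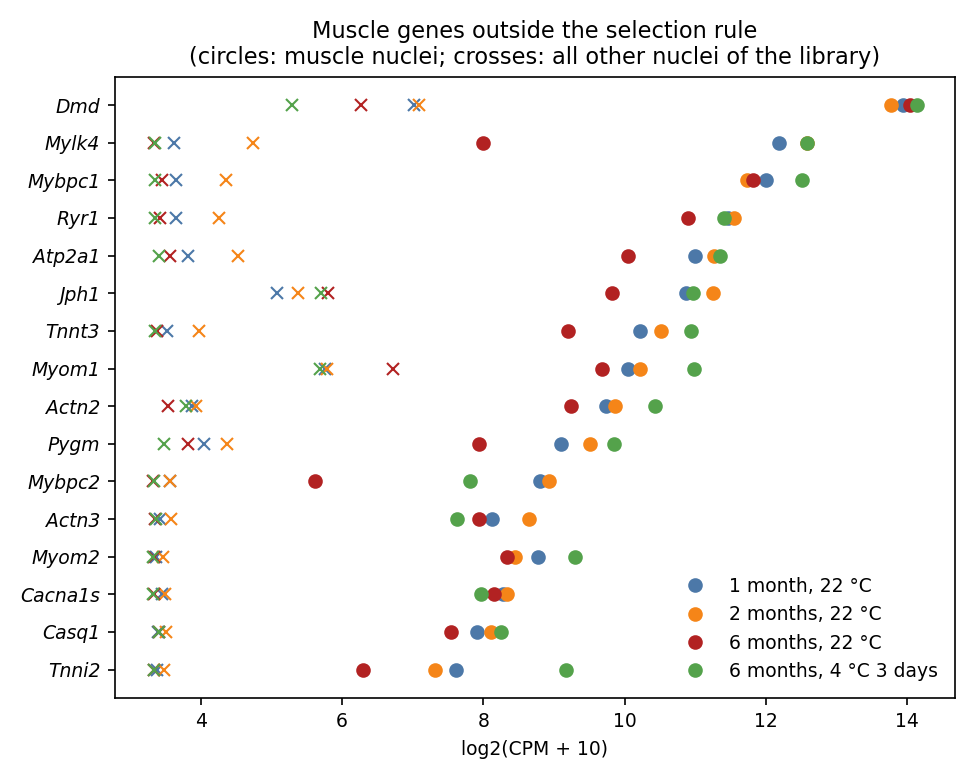
Level, as log2(CPM + 10), of 16 muscle genes that the selection did not use; circles are the muscle nuclei and crosses all other nuclei of the same iBAT library, 1 colour per library. Every circle lies to the right of its cross, and Mylk4 and Mybpc2 have their lowest circle at 6 months at room temperature.

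Lists of genes of other cells were summed in the muscle nuclei and in the other nuclei. The 8 macrophage genes summed to 154, 153, 185 and 214 CPM, which was 0.565, 0.896, 0.804 and 0.857 of the level in the other nuclei. Adgre1, Csf1r and Ptprc of that list were at 0 in all 4 libraries, and Rbpj, the Notch pathway transcription factor, was at 122, 144, 185 and 214 CPM. The 8 smooth muscle and pericyte genes summed to 249.9, 313, 292.5 and 268 CPM, at 0.544, 0.910, 1.94 and 2.72 of the others. Abcc9, a subunit of ATP-gated potassium channels, was at 211, 287, 215 and 268 CPM of these, and Tagln was at 0 in all 4. The 8 T, NK or B cell genes summed to 57.7, 113, 68.3 and 214 CPM, at 0.599, 1.40, 1.31 and 2.35 of the others. Bach2, a bZIP repressor, was at 57.7, 109, 68.3 and 214 CPM of these, with Themis, Pax5 and Cd3e at 0 in all 4. A list of 10 brown adipocyte genes summed to 3165, 3977, 3461 and 4235 CPM, which was 0.291, 0.295, 0.194 and 0.204 of the level in the other nuclei. Its largest part was Ghr, the growth hormone receptor, at 2102, 2655, 1355 and 2547 CPM. Ucp1, the uncoupling protein of brown fat, stood at 38.4, 79.6, 39.0 and 107 CPM against 298, 472, 408 and 1399 in the other nuclei. The 8 endothelial genes summed to 263, 67.9, 273 and 0 CPM, at 0.321, 0.141, 0.619 and 0 of the others. Pax7, the defining gene of satellite cells (the stem cells of muscle), was seen in 5, 23, 6 and 0 muscle nuclei, and the list of 9 satellite cell genes summed to 51.3, 26.8, 97.5 and 0 CPM, against 29.1, 22.3, 15.2 and 22.6 in the other nuclei. Cardiac muscle genes summed to 12.8, 11.1, 351 and 0 CPM, against 18.5, 14, 79.3 and 81.5. The 6-month value was carried by Tnnt2, at 341 CPM, while Myh6, Tnni3, Myl7, Nppa and Ryr2 were at 0 there.

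The genes of the rule describe the same nuclei. Ttn, the giant spring protein of the sarcomere, stood at 73939.8, 57345, 20320.2 and 31096 CPM at 1 month, 2 months, 6 months and 6 months cold. Neb, the ruler of the thin filament, was at 7849, 7493, 6367 and 8444 CPM, and Trdn, which anchors calcium stores to the release channel, at 4908, 6538, 4076 and 5335. Ttn was lowest at 6 months at room temperature, while Neb and Trdn spanned less than a 2-fold range. After Ttn, the gene that stood out most from the other nuclei was Agbl1, a tubulin deglutamylase family gene, at 8855, 6469, 3081 and 11473 CPM against 0.659 to 16.4 in the other nuclei. Kcnma1, a calcium-gated potassium channel, Fgf13, a partner of sodium channels, and Filip1l were also among the 20 leading genes.

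Each muscle nucleus was next placed in a class by its leading adult myosin, the gene with the most UMIs among Myh4, Myh1, Myh2 and Myh7, with at least 2 UMIs. The member rule counts Myh4 and Myh1 but not Myh2 or Myh7, which can favour nuclei of the Myh4 and Myh1 classes. At 2 months, 311 of 471 nuclei were in the Myh4 class, 66.0% (61.6 to 70.3%). The Myh1 class held 51, the Myh2 class 34 and the Myh7 class 33, and 42 had no leading myosin. At 1 month the same classes held 20, 11, 6 and 3 nuclei, with 5 left over. The Myh4 class was thus 44.4% (29.6 to 60.0%) of the nuclei at 1 month. After cold, 5 nuclei were in the Myh4 class, 2 in the Myh1 class and 3 in the Myh2 class.

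The 6-month room temperature library differed in this respect. Of its 36 nuclei, 10 were in the Myh4 class, 6 in the Myh1 class, 2 in the Myh2 class and none in the Myh7 class. The other 18, 50% (32.9 to 67.1%), had no leading myosin, against 8.92% (6.5 to 11.9%) at 2 months. At 1 and 2 months the nuclei with no leading myosin were shallow, with medians of 1007 and 981 UMIs. At 6 months their median was 2667 UMIs, above the 2512.5 of the Myh4 class. Their median sum over the 7 muscle genes was 60.5 UMIs against 125 in the Myh4 class, 58.5 in the Myh1 class and 74.5 in the Myh2 class. That sum is part of the member rule and includes Myh4 and Myh1, so it is not independent of the classes. These medians rest on 5, 42 and 18 nuclei with no leading myosin, and the part of depth was not tested. A nucleus with no leading myosin can still hold a single UMI of one or a tie, and none of the 4 genes had a UMI in 9 of 36 nuclei at 6 months and 16 of 471 at 2 months.

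Most nuclei showed 1 adult myosin gene only. At 2 months 401 nuclei had UMIs of 1 of the 4 genes, 54 of 2, and none of 3 or 4. The pairs were uneven. Of 41 nuclei with Myh2, 36 also had Myh1 and 1 also had Myh4. Of 94 nuclei with Myh1, 12 also had Myh4, and of 40 nuclei with Myh7, 3 also had Myh4. Myosin genes are near-identical copies of each other and the handling of reads that fit several of them is not given, so these levels are uncertain.

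The fast myosin genes lie in a row on chromosome 11 (GRCm38). Myh3 is at chr11:67078300-67102291, Myh2 at chr11:67171027-67197517, Myh1 at chr11:67200052-67224575, Myh4 at chr11:67238029-67260446 and Myh8 at chr11:67277124-67308634, all on the plus strand. The antisense gene Myhas, at chr11:67211256-67237573 on the minus strand, overlaps the end of Myh1. The 250 bases before the starts of Myh8, Myh4 and Myh1 are shown because Myh8 was seen in muscle nuclei of a single library and Myh4 and Myh1 define the largest fast classes. They are from RefSeq on GRCm38.p6, plus strand, in lower case. Capitals mark a 10-base MEF2 element, which had the same letters in the 3 windows, and in Myh4 also the E-box CAGCTG, the kind of site that MyoD family factors bind.
Myh8, chr11:67276874-67277123: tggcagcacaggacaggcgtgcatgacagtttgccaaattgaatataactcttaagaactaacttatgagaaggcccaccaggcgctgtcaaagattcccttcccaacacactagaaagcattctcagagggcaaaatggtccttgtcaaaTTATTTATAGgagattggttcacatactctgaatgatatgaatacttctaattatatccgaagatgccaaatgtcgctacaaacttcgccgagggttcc
Myh4, chr11:67237562-67237811: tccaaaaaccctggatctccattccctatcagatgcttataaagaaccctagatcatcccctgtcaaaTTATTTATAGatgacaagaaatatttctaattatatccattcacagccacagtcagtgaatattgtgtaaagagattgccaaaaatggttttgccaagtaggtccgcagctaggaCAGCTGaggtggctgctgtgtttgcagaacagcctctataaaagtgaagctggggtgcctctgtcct
Myh1, chr11:67199852-67200101: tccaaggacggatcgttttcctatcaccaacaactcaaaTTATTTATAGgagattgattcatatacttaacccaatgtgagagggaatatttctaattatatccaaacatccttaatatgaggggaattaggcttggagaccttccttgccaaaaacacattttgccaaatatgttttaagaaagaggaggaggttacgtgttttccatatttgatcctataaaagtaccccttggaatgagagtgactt

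Each window ends at the start that RefSeq gives, which for Myh4 and Myh1 differs from the gene start in the coordinates above. From the RefSeq starts, the MEF2 element began 99 bases before the start of Myh8, 182 before that of Myh4 and 211 before that of Myh1. It was found, on either strand, in 2.92% of 32851 RefSeq promoter windows, and the E-box in 13%. Each match describes letters in the 250 bases before a start, and the 50 bases after it were not searched. Of 12 windows of neuromuscular junction genes, 5 held the E-box, 41.7%. Of 16 windows of embryonic, regenerating or denervated fibre genes 1 did, that of Chrng, which held 2. Over the 15 gene lists used below, the share of windows with the E-box ran from 5.26% to 41.7%, the junction list being the highest. The share with the MEF2 element ran from 0 to 23.1%.

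Slow and fast nuclei were told apart by many genes beside the myosins. At 2 months, the only library with over 10 nuclei of every class, the Myh7 class was set against the Myh4 class. This comparison was added after the data were seen. Myh4, Myh1, Myh2 and Myh7, which make the classes, were left out of every count between classes. Among 5996 genes with at least 20 UMIs over both classes, 9.02% were at least 2-fold higher in the Myh7 class and 15.9% at least 2-fold lower, on the scale of CPM with 10 added. Of the 14 such genes of the slow and oxidative list, 9 were past that fold higher and 0 lower, with a median log2 difference of 3.31 beside -0.09 for all genes. Of the 20 genes of the fast glycolytic list 17 were lower and 0 higher, with a median of -2.0. Nuclei of 1 library share their source, so these are differences within a library.

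Slow isoforms of the sarcomere led the Myh7 class. Tpm3, slow tropomyosin, was at 3199 CPM against 17.2 in the Myh4 class, and Tnnt1, slow troponin T, at 1083 CPM against 0. Myl2, the slow regulatory light chain, was at 907 CPM against 0, Tnnc1, slow troponin C, at 624 against 0.908, and Myoz2, a calcineurin-binding Z-disc protein, at 1189.8 against 2.72. Atp2a2, the slow calcium pump, was at 2887 CPM against 36.3. At 1 month the 3 nuclei of the Myh7 class had the same genes. Tpm3 stood at 2679.6 CPM there and Tnnt1 at 776, both at 0 in the 20 nuclei of the Myh4 class.

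Fast isoforms were at or near 0 in the Myh7 class. Tnnt3, fast troponin T, was at 0 against 1677 CPM, and 0 of 33 against 296 of 311 nuclei had a UMI of it. Pvalb, the calcium buffer parvalbumin, was at 0 against 739.8 CPM, Mybpc2, fast myosin binding protein, at 0 against 627, and Myom2, an M-band protein, at 0 against 391. Mylk4, a myosin light chain kinase family gene, was graded over the classes, at 7858 CPM in the Myh4, 3112 in the Myh1, 616 in the Myh2 and 195 in the Myh7 class. Ryr1 was level across them, at 3105, 3018, 2761 and 2565 CPM.

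Within the fast classes the Myh4 class also stood apart. Over 6315 genes, 6.33% were past the fold higher in the Myh4 class than in the Myh1 and Myh2 classes together, and 3.36% lower. Of 20 fast genes 10 were past it higher and 0 lower, with a median log2 difference of 1.00 beside 0.06 for all genes. Of 11 slow and oxidative genes 6 were lower and 0 higher, with a median of -1.21. Actn3, the fast Z-disc actinin, was at 511 CPM in the Myh4 class against 42.1 in the others, and at 0 in the Myh2 class. Kcnab1, a potassium channel subunit, had 360 UMIs in 29 nuclei of the Myh4 class and 0 in the other 2 classes. Lower in the Myh4 class were Myom3, an M-band protein of slow and 2A fibres, at 19.1 against 260.3 CPM, Ldhb, the heart-type lactate dehydrogenase, at 6.35 against 95.7, and Esrrb, an orphan nuclear receptor, at 0.908 against 76.6.

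**Figure D3:**
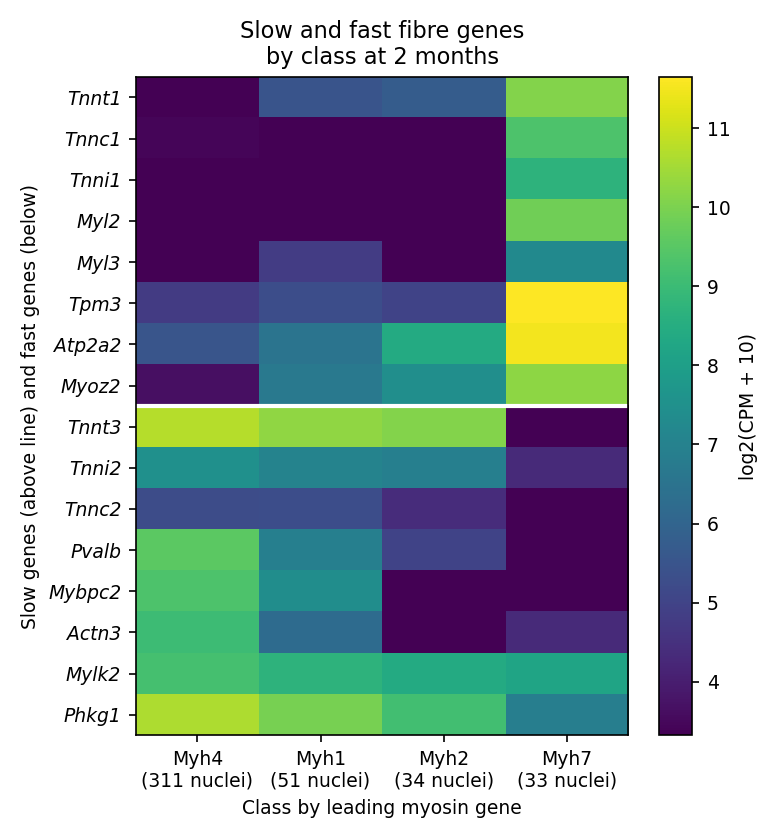
Level, as log2(CPM + 10), of slow fibre genes (above the line) and fast fibre genes (below) in the muscle nuclei of the 2-month iBAT library, by leading myosin class. Tpm3, Tnnt1 and Myl2 are highest in the Myh7 class, and Pvalb decreases from the Myh4 to the Myh7 class.

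Host genes of muscle microRNAs were compared over the fibre classes. Small RNAs were not measured, so a host transcript says nothing of the level of the microRNA. Gm28653, a long non-coding RNA at chr1:20669882-20684298 on the plus strand, holds Mir206 and Mir133b. Myh7b and Myh7 hold Mir499 and Mir208b. The mature sequences (RefSeq, GRCm38.p6) are shown because Gm28653 and Myh7b were highest in the Myh7 class at 2 months and Myh7 defines that class, with the seed, bases 2 to 8, in capitals.
miR-206-3p: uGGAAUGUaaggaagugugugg
miR-133b-3p: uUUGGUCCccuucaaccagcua
miR-499-5p: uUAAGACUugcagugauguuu
miR-208b-3p: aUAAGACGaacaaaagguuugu
The seeds of miR-499-5p and miR-208b-3p share 6 of 7 bases in place. No other pair shares more than 3.

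At 2 months Gm28653 was at 1629 CPM in the Myh7 class and 2.72 in the Myh4 class, with 200 in the Myh1 class, 308 in the Myh2 class and 495 in nuclei with no leading myosin. Myh7b was at 809 CPM in the Myh7 class, 74.9 in nuclei with no leading myosin and 0 in the other classes. At 1 month Gm28653 was at 1692 CPM in the 3 Myh7 nuclei and 0 in every other class. Over all muscle nuclei Gm28653 stood at 154 CPM (98.5 to 229) at 1 month, 173 (153 to 195) at 2 months, 1268 (1059 to 1505) at 6 months and 0 after cold. Its level was highest at 6 months, in a library with no Myh7 nucleus. There the transcript was found in 18 of 36 nuclei, at 1289 CPM in nuclei with a leading myosin and 1248 in those without.

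The first of 3 comparisons between libraries was 2 months over 1 month. Of 7015 genes, 8.41% were past a 2-fold difference higher at 2 months and 2.35% lower. The medians of the 15 lists ran from -0.59 to 0.65 on the log2 scale, beside 0.06 for all genes. The fast list had 1 gene higher (Pvalb, 558 against 250 CPM) of 20 and 0 lower, and the slow list 1 higher (Myl2) and 2 lower (Myh2 and Mb) of 17. In the Myh4 class alone 2 of 8 slow genes were higher and 0 lower, with a median of 0.47 in place of -0.13. There 82.9% of all past-fold genes were higher, against 78.1% over all muscle nuclei. Myh2, the 2A chain, was at 679 CPM at 1 month and 283 at 2 months, and Mb, myoglobin, at 70.5 and 20.9.

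Of the 10 genes with the largest differences higher at 2 months, Adamtsl1, Kcnab1 and Gdap1 were also among the 10 with the largest differences in favour of the Myh4 class over the Myh1 and Myh2 classes. Both rankings have the 2-month nuclei of the Myh4 class on the higher side, so the overlap is no separate evidence. That class held 311 of 316 UMIs of Adamtsl1 at 2 months and 360 of 362 of Kcnab1. At 1 month Adamtsl1 had 0 UMIs in the Myh4 class and 1 in the Myh1 and Myh2 classes. Adamtsl1, a secreted matrix protein, was at 6.41 CPM at 1 month and 206 at 2 months, a log2 difference of 3.72 (interval of the plain ratio 2.52 to 10.3). Kcnab1 was at 19.2 and 236 CPM. At 1 month both rested on 1 nucleus. Gdap1, a mitochondrial outer membrane protein, was at 12.8 and 103 CPM, and Casr, the calcium-sensing receptor, at 6.41 and 67.2. Lower at 2 months were Nfil3, a bZIP repressor of clock output, at 83.3 and 19.6 CPM, Nhej1, a DNA end-joining factor, at 109 and 30.0, and Fxyd1, a regulator of the sodium pump, at 135 and 48.3.

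The second comparison was 6 months over 2 months at room temperature. Here 12.7% of 7069 genes were past the fold higher and 16% lower. With a scaling by trimmed means (TMM) the share of past-fold genes that were higher was 33.8% in place of 44.2%, and the median of all genes moved from 0.03 to -0.13. That share was 36.7% among nuclei with a leading myosin and 30.4% in the Myh4 class, with 6720 and 5769 genes counted. Counts of the lists below in these settings are to be read beside these shares. The 6-month values rest on 36 nuclei. Their mitochondrial share of UMIs was 0.714%, against 0.157% at 2 months, and in the other nuclei it was 0.900% and 0.481%. Its part in the differences was not tested.

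Myh8, the perinatal myosin whose promoter is printed above, was at 0 CPM at 1 month, 0 at 2 months, 439 at 6 months and 0 after cold. At 6 months 45 UMIs lay in 11 nuclei. The level was at least 224-fold higher than the 3 UMIs that a count of 0 allows at 2 months, and the exact interval of the plain log2 ratio began at 7.45. The other nuclei of the 6-month library held 0.183 CPM. Myh3, the embryonic chain, was at 9.75 CPM at 6 months and 0 elsewhere, a single UMI.

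Ncam1, a cell adhesion molecule that spreads over denervated and regenerating fibres, was at 0, 52.9, 1443 and 0 CPM in the 4 libraries. The log2 difference of 6 months over 2 months was 4.53 (plain ratio 4.37 to 5.18). Runx1, a transcription factor long known to be induced in denervated muscle, was at 19.2, 54.2, 2730.2 and 26.8 CPM. One nucleus held 35.7% of its 280 UMIs at 6 months, and without that nucleus the level was 1914 CPM. Myl4, an embryonic light chain, was at 0, 2.61, 215 and 0 CPM, and Sln, the calcium pump inhibitor sarcolipin, at 0, 1.96, 273 and 0. One nucleus held 40.9% of the 22 UMIs of Myl4 at 6 months and 1 held 32.1% of those of Sln, and the levels without them were 138 and 194 CPM. For each of these the 6-month library was alone at the high level.

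Of the 14 genes of the embryonic, regenerating or denervated list, 7 had enough UMIs, and 6 of them were past the fold higher at 6 months and 0 lower. The 6 were Myh8, Myl4, Ncam1, Runx1, Gadd45a and Hdac4, and the seventh was Peg3. Their median log2 difference was 4.15, beside 0.03 for all genes. The list was chosen with earlier results of these data known. Myh8 and Ncam1 are also among the 10 genes with the largest differences higher at 6 months, so the count is no separate evidence. The count was 5 of 7 with TMM scaling, 2 of 4 among nuclei with a leading myosin and 3 of 4 among nuclei of the Myh4 class, both added after the data were seen. Among nuclei of the Myh4 class, Runx1 stood at 31.8 CPM at 2 months and 1642 at 6 months, in 19 of 311 and 4 of 10 nuclei. Chrng, the fetal acetylcholine receptor subunit, was below the minimum of UMIs and stood at 0, 0, 58.5 and 0 CPM.

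These genes were spread over the 6-month nuclei. Runx1 had a UMI in 23 of 36, Ncam1 in 24, both in 15 and either in 32. At 2 months either was seen in 51 of 471 nuclei, and at 1 month in 2 of 45. Of the 11 nuclei with Myh8, 10 also had Runx1. Runx1 stood at 3819.6 CPM in the nuclei with no leading myosin and at 1534 in those with one, and at 2324 and 1112 without the top nucleus of each set, a setting chosen after the data were seen. Ncam1 was at 1919 and 920.5 CPM, and Myh8 at 484 and 389. At 2 months Runx1 was at 555 CPM in nuclei with no leading myosin, 37 UMIs in 6 nuclei, and at 31.4 in those with one. Ncam1 was at 180 and 47.1 CPM there, and at 468 in the Myh7 class.

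**Figure D4:**
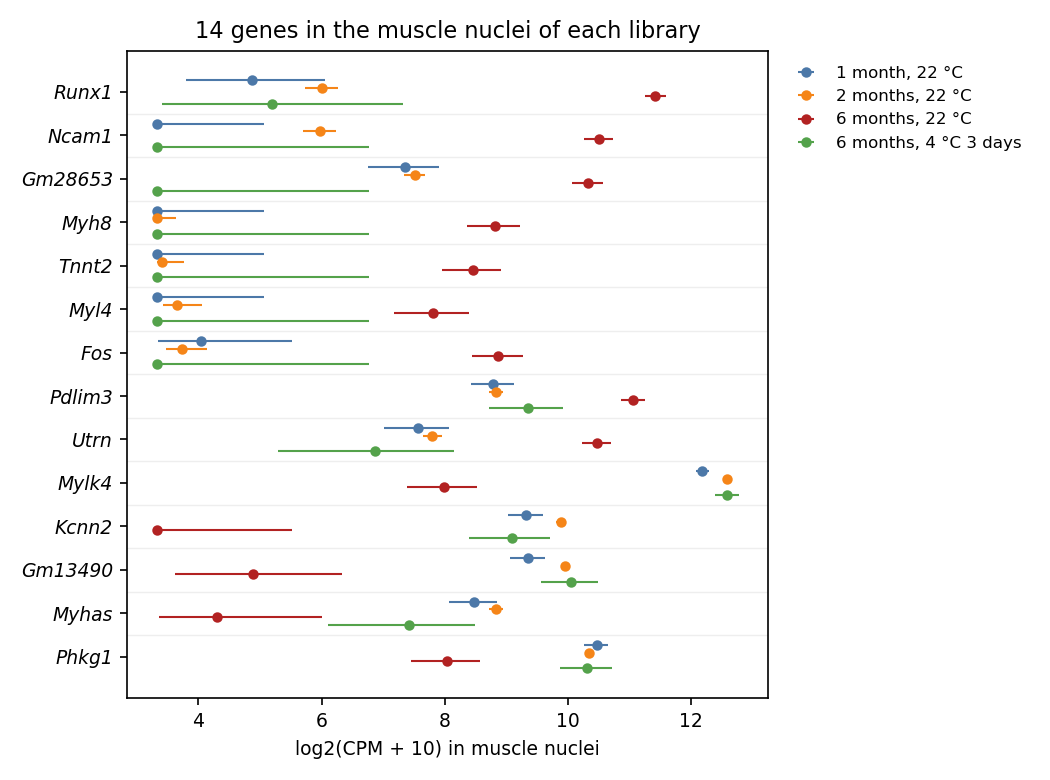
Level, as log2(CPM + 10), of 14 genes in the muscle nuclei of each iBAT library, 1 colour per library; bars are exact 95% Poisson intervals of the count. Runx1, Ncam1 and Myh8 lie highest at 6 months at room temperature, and Kcnn2 and Mylk4 lowest.

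Of 10 genes of the neuromuscular junction with enough UMIs 4 were past the fold higher at 6 months and 1 lower. Among nuclei with a leading myosin 4 of 8 were higher and 2 lower, and in the Myh4 class 1 of 5 and 1, with a median of 0.31 in place of 0.63. Chrnb1, an acetylcholine receptor subunit, was at 12.8, 15.0, 146 and 0 CPM, Colq, the collagen tail of acetylcholinesterase, at 6.41, 23.5, 166 and 0, and Rapsn, the receptor clustering protein, at 19.2, 13.1, 58.5 and 0. Dok7, the activator of MuSK, was lower, at 57.7, 53.5, 9.75 and 0 CPM. Its 6-month value is a single UMI, and the exact interval of 0.247 to 54.3 CPM covers its level at 2 months. Musk itself, the receptor kinase that organises the junction, was at 96.1, 169.7, 224 and 134 CPM and did not pass the fold.

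Of 20 fast fibre genes 11 were past the fold lower at 6 months and 0 higher, with a median log2 difference of -1.09. With TMM scaling 13 were lower, and among nuclei with a leading myosin 7 were lower and 1 higher. In the Myh4 class 11 were lower and 2 higher. Over all genes the share past the fold lower was also larger in that class, as given in the last section, and 30.4% of past-fold genes were higher. Mylk4, the kinase family gene graded over the fibre classes, was at 4639, 6111, 244 and 6139 CPM. At 6 months it was at 245 CPM in the Myh4 class, against 7858 in that class at 2 months. Phkg1 and Phka1, subunits of phosphorylase kinase, were at 1403, 1295, 253 and 1259.9 CPM and at 1294, 1838, 263 and 1689. Pygm, muscle glycogen phosphorylase, was at 538, 719.9, 234 and 911 CPM. Tnnt3 was at 1179, 1451, 575 and 1957. In all of these the 6-month room temperature library was the lowest of the 4.

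Of 17 slow and oxidative genes 8 were past the fold lower and 1, Tnnc1, higher, with a median of -0.65. The 8 include Myh7 and Myh2, which make the classes, and Myl2 and Myoz2, high in the Myh7 class. With 0 Myh7 and 2 Myh2 nuclei at 6 months, the count in part restates the class shares. In the Myh4 class 6 of 9 were lower and 1 higher, with a median of -1.62. Tnnc1 had 10 UMIs at 6 months, and no gene of the list was past the fold higher with TMM scaling or among nuclei with a leading myosin. Myh7 was at 288, 263, 0 and 0 CPM. Ppargc1a, the coactivator PGC-1α, was at 352, 405, 87.8 and 777 CPM, and Esrrg, an orphan nuclear receptor of oxidative muscle, at 1775, 1909.8, 682.5 and 2118. The 18 genes of the list summed to 6426, 5634, 2506 and 7506 CPM in muscle nuclei. In the other nuclei they summed to 13201, 13794, 11207 and 11822 CPM. Of 20 genes of fuel use, 9 were lower and 1, Pdk4, higher. Among nuclei with a leading myosin 6 of 20 were lower and 2 higher, with a median of -0.22 in place of -0.62. In the Myh4 class 8 of 18 were lower and 1 higher. Of all genes past the fold, 36.7% and 30.4% were higher in these 2 settings. Lower genes were more frequent over all genes in the Myh4 class, as given in the last section. Pdk4, which limits glucose oxidation, was at 89.7, 112, 380.3 and 134 CPM, and Ckmt2, mitochondrial creatine kinase, at 397, 328, 29.3 and 509. The 22 genes of the fuel list summed in muscle nuclei to 0.446, 0.434, 0.260 and 0.371 of their level in the other nuclei. The part of RNA from other nuclei in the values of both lists was not tested.

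The genes of excitation and calcium split in both directions, 4 higher and 6 lower of 19, and 2 and 3 of 17 among nuclei with a leading myosin. Kcnn2, a calcium-gated potassium channel outside that list, was at 628, 937, 0 and 536 CPM and had a UMI in 250 of 471 nuclei at 2 months and 0 of 36 at 6 months. Against the 3 UMIs that a count of 0 allows it was at least 32.0-fold lower, and the exact interval of the plain log2 ratio ended at -4.70. Casq2, the slow and cardiac calsequestrin, was at 6.41, 9.14, 244 and 0 CPM, and Camk2d, a calcium-dependent kinase, at 442, 356, 1638 and 402. Scn4a, the sodium channel of adult muscle, was at 186, 192, 48.8 and 188 CPM, and Clcn1, the chloride channel, at 455, 446, 166 and 268.

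Of the structural lists, the thick filament list had 2 genes higher and 4 lower of 12, and the thin filament list 1 higher and 4 lower of 17. Over all genes 12.7% were past the fold higher and 16% lower. In lists of 12 to 17 genes, as here, counts near those shares are not read as results of the list. With TMM scaling 7 thin filament genes were lower, and in the Myh4 class 4 were higher and 1 lower. Pdlim3, a Z-disc LIM protein, was at 429, 446, 2126 and 643 CPM. In the dystrophin list Utrn, the dystrophin homologue utrophin, was at 179, 213, 1404 and 107 CPM, while Dmd itself, dystrophin, stayed between 14006 and 17934. Among 14 transcription regulators Mef2a and Tead4 were higher and Eya1 lower. Tead4, a factor of the Hippo pathway, was at 32.0, 20.2, 448.5 and 80.4 CPM, and Eya1, a cofactor of homeobox proteins in muscle, at 231, 233, 39.0 and 241. Of 12 atrophy and growth genes 1 was higher and 3 lower, and the ubiquitin ligases Fbxo32 and Trim63 did not pass the fold, at 209 and 402 CPM at 2 months and 215 and 292.5 at 6 months.

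Of 12 genes of the activity and cold response list 5 were past the fold higher at 6 months and 2, Nr4a1 and Thrb, lower. Among nuclei with a leading myosin 3 of 9 were higher and 1 lower, and in the Myh4 class 1 of 7 and 1, with a median of -0.07 in place of 0.86. Fos was at 6.41, 3.26, 458 and 0 CPM and Egr1 at 0, 0, 254 and 0. In the other nuclei Fos was at 0.993 CPM at 2 months and 8.94 at 6 months, so it was higher there as well. Nr4a1, an orphan nuclear receptor and immediate early gene, was at 115, 196, 68.3 and 107 CPM. Of 14 clock genes 8 were lower at 6 months, among them Per1, Per2, Per3, Nr1d2 and Dbp, and Clock and Npas2 were higher. Among nuclei with a leading myosin 4 of 13 were lower and 0 higher, and in the Myh4 class 6 of 13 and 0. Of all genes past the fold, 36.7% and 30.4% were higher in these 2 settings. Lower genes were also more frequent over all genes in the Myh4 class, as given in the last section. Per2, a clock repressor, was at 63.3 CPM at 2 months and 19.5 at 6 months in muscle nuclei, and at 89.3 and 39.5 in the others. Dbp was at 69.2 and 19.5 in muscle nuclei and at 27.7 and 38.6 in the others. The 19.5 CPM of Per2 and of Dbp is 2 UMIs each. Its exact interval, 2.36 to 70.4 CPM, covers the 2-month levels of both genes. The hour at which tissue was taken is not given in the labels, and its part was not tested.

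Genes of other cells moved with the 6-month library in part. The rule's 7 genes of other classes summed to 999.5, 1035, 1794 and 804 CPM in the 4 libraries. Lama2, a laminin chain and 1 of the rule's fibroblast genes, was at 70.5, 79.0, 761 and 0 CPM, in 17 of 36 nuclei at 6 months. In the other nuclei Lama2 was at 96.9, 108, 90.2 and 47.6 CPM. The stromal list of 8 genes summed to 38.4, 81.6, 68.3 and 0 CPM, with Pdgfra, Col1a2, Fbn1 and Dpp4 at 0 at 6 months. The endothelial list, given above, stood at 67.9 CPM at 2 months and 273 at 6 months, when 4 of its 8 genes were higher in muscle nuclei than in the others and Cdh5 was at 0. Tnnt2, the cardiac and embryonic troponin T, was at 0, 0.653, 341 and 0 CPM with the other cardiac genes as given above. The other nuclei held 0.312 CPM of Tnnt2 at 6 months. Pax7 was at 38.4, 16.3, 68.3 and 0 CPM. The part of these cells in the differences at 6 months was not tested.

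The third comparison was 6 months cold over 6 months at room temperature, 10 nuclei against 36. It shares the 6-month room temperature library with the comparison before it, as that one shares the 2-month library with the first. Of 1475 genes, 13.4% were past the fold higher after cold and 25.2% lower. With TMM scaling the share of past-fold genes that were higher was 43.0% in place of 34.6%, and the median of all genes moved from -0.16 to -0.02. Because of the shared library, values in all 4 libraries are given for most genes named here.

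Rpl3l, a ribosomal protein specific to striated muscle, was at 423, 303, 29.3 and 563 CPM in the 4 libraries. Zbtb16, the zinc finger factor PLZF, was at 2229.7, 1961, 263 and 2198 CPM, and was also higher in the other nuclei after cold, at 412 against 203. Mbnl1, a splicing regulator, was at 2633, 2549, 751 and 4423 CPM, and Pfkm, muscle phosphofructokinase, at 288, 349, 136.5 and 751. Of 14 fast genes 10 were past the fold higher and 0 lower, with a median log2 difference of 1.55. Among nuclei with a leading myosin 9 of 13 were. Of 14 thin filament genes 8 were higher and 1 lower, and of 9 slow and oxidative genes 5 were higher and 1 lower. In the Myh4 class alone 2 of 10 thin filament genes were higher and 2 lower, with a median of 0.28 in place of 1.18, and 1 slow and oxidative gene had enough UMIs.

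The 10 genes with the largest differences in the other direction were all at 0 UMIs after cold, among them Ncam1, Gm28653, Lama2, Fos, Myh8 and Tnnt2. Lama2 is a gene of the member rule, so its values are descriptions. Ncam1 was at least 17.9-fold lower and Gm28653 at least 15.8-fold, against 3 UMIs, and the exact intervals of their plain log2 ratios ended at -3.85 and -3.66. Of 6 genes of the embryonic, regenerating or denervated list 5 were lower and 0 higher, and 3 of 4 among nuclei with a leading myosin. Utrn was at 107 CPM after cold against 1404. Each side is 1 library, so cold and the library cannot be told apart. Ucp3, Sln, Fgf21 and Gdf15 are genes followed in muscle of cold-exposed mice. Ucp3 was at 38.4, 97.3, 68.3 and 188 CPM in the 4 libraries, and in the cold comparison it was below the minimum of 20 UMIs. Sln was at 0, 1.96, 273 and 0 CPM, while Fgf21 and Gdf15 were at 0 in all 4. Of the 5 genes of the activity and cold response list with enough UMIs, Vegfa and Thrb were higher and Fos, Egr1 and Sln lower. Among nuclei with a leading myosin 2 had enough UMIs, and 2 were higher.

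Few genes of body position had enough UMIs to compare. Tbx15, a T-box factor of trunk and limb muscle, was at 1435, 939, 731 and 697 CPM, against 42.9, 49.5, 24 and 25.7 in the other nuclei. Pax3, which is kept in some adult muscles of the trunk, was at 32.0, 51.6, 0 and 53.6. Of the 25 genes of the list, 12, 18, 11 and 6 had a UMI in the 4 libraries. Hoxa11, Hoxb5, Hoxb7, Hoxc5, Hoxc8, Hoxc9 and Hoxc10 were at 0 in all 4. Hoxa9 and Hoxa10, of posterior position, had UMIs at 2 months only. Hoxa3, of anterior position, was at 25.6, 13.7, 29.3 and 26.8 CPM, the last a single UMI. At these counts no order by position can be read. No other depot had at least 50 muscle nuclei, so no depot was set beside iBAT.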

How the data were processed

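Single-nucleus RNA was measured in 12 mouse adipose libraries, 1 per group, of which the 4 iBAT libraries were used. The deposited values are raw UMI counts for each barcode, made by the authors with Cell Ranger 7.0.0 and mm10, per the submitters' processing notes. The counting of intronic and multi-mapped reads and the use of strand are not given in the sources used here. The members, the 15 gene lists and the marker lists were chosen with earlier results of these data known.

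Nuclei with no fewer than 300 genes and no more than 10% of mitochondrial UMIs were kept, and the rule on muscle genes picked the members. No clustering and no doublet caller was run. Doublets were addressed by leaving out members over 3 times the median UMIs and by asking for a muscle sum at least 3 times the other sum. Counts of members were summed per library and scaled to CPM. Differences are log2 ratios with 10 CPM added, for genes with at least 20 UMIs over both sides, and a 2-fold difference (log2 of 1) was the threshold. With 1 library per group no test across libraries was made. The planned edgeR test of fibre classes needed 3 libraries with at least 10 nuclei in both classes, and 2 had them, so it was not run. Intervals are exact at 95% (Clopper-Pearson for shares, Poisson for levels, conditional binomial for plain ratios). The genes named are the 10 with the largest differences per direction and members of the lists. The 10 had at least 5 nuclei and at most 25% of UMIs in 1 nucleus on the higher side. In comparisons between libraries, their level in members on that side also had to be at least that of the other nuclei. Gene positions come from GRCm38, sequences and promoter windows from RefSeq on GRCm38.p6. Depths are in the report. Python 3.11.15, numpy 2.4.6, pandas 2.3.3 and scipy 1.17.1 were used, with edgeR 4.0.16 for TMM. The scripts were tested on simulated data. Alternatives were thinning to 1000 UMIs, other member rules, scalings, added CPM, minimum UMIs and nuclei of 1 class. Results for some genes are not reported here.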

Additional observations from a re-analysis of the deposited data

Results flagged for a closer look

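In the depots other than iBAT, whose nuclei entered no comparison, 4 nuclei met the same muscle rule. All 4 were in the iWAT library at 6 months after cold, of 4949 nuclei, and 0 were found in the other 7 libraries of these depots. Their sums over the 7 muscle genes were 112, 56, 175 and 33 UMIs. The leading adult myosin was Myh4 in 2 of them, and the other 2 had none.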

How the results depend on the processing

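The order of the 4 shares held under every member rule tried. Thinned to 1000 UMIs per nucleus, which left out 4063, 3032, 3095 and 230 shallower nuclei, the share was 0.545% at 1 month and 4.17% at 2 months, and the Myh4 class was 60.3% at 2 months. Without members over 3 times the median UMIs the 2-month share was 3.41%. Counts of genes past the fold moved with the minimum of UMIs and the CPM added. At 2 months over 1 month, 590 genes were higher and 165 lower. The higher count was 1014 with 1 CPM added, 250 with at least 50 UMIs, 265 among genes at least as high in members as in other nuclei and 983 in the Myh4 class. The lower count was 326 with the mean of the nuclei's own CPM, 365 with 1 CPM added, 50 with at least 50 UMIs and 450 with no minimum. At 6 over 2 months, 897 were higher and 1133 lower. The higher count was 471 with at least 50 UMIs and 1690 with no minimum (1690 of 15627 genes). The lower count was 663 with at least 50 UMIs and 657 among genes at least as high in members. In the Myh4 class it was 1990 of 5769 genes, against 1133 of 7069 over all members. After cold, 197 were higher and 372 lower. The higher count was 73 with at least 50 UMIs, 1899 with no minimum, 118 among nuclei with a leading myosin and 68 in the Myh4 class. The lower counts were 100, 2918, 138 and 89. The cause was not tested, beyond fewer or more genes and nuclei entering. The class-only settings were added after the data were seen.

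Of 60 named gene differences, 2 changed sign, both at 6 over 2 months in the Myh4 class only: Col13a1 at -0.71 and Adam19 at -0.35. The embryonic, regenerating or denervated list at 6 months had 3 genes higher with at least 50 UMIs and 11 with no minimum. No paired analysis was possible because each group has 1 library. The comparison of fibre classes within libraries was left untested by the rule of at least 10 nuclei of each class in 3 libraries, which 2 met. Depth limits the cold library most, where the limit of 3 UMIs for a count of 0 was 80.4 CPM, against 1.96 at 2 months (98.9 and 2.41 by the exact interval).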
